A study of Homo sapiens with 27 samples.

Results

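The first 2 h of treatment were described in the breast cancer line MDA-MB-231, of the basal B type, by setting the 3 arrays of 2 h against the 3 arrays of 0 h. At each time there was 1 array of cells given 5SGlcNAc at 50 µM, 1 of cells given Thiamet-G at 25 µM and 1 of cells given DMSO, the vehicle, and each 2 h array was matched to the 0 h array of its own treatment series. The 6 arrays were chosen by these labels from 27 arrays in all, and the 0 h arrays carry the same treatment names as the 2 h arrays. 5SGlcNAc inhibits OGT, the enzyme that adds the sugar O-GlcNAc to intracellular proteins, and Thiamet-G inhibits OGA, the enzyme that removes it. All cells were kept in DMEM with 10% serum, and nothing in the labels sets the genotype of 1 group apart from another. The question was which messenger RNAs had moved by the first time point in every series, the vehicle series included. The study also held single arrays of 4, 6, 8 and 24 h for each treatment, which were used for the estimate of the spread and for the later course of the genes, and arrays of 48 h, which were not used here.

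Immediate early genes are transcribed within minutes of a signal from existing transcription factors, without new protein synthesis. Their messages are short-lived, and many encode transcription factors such as FOS and EGR1 that act on a second wave of genes. The ERK kinases are a main route to these genes, and ERK signalling also induces its own brakes, among them the dual-specificity phosphatases (DUSP) and the Sprouty proteins. The ID proteins, which block basic helix-loop-helix transcription factors, and the inhibitors SMAD7 and BAMBI are early targets of the BMP and TGF-beta receptors.

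Levels were the deposited log2 values, and a gene's change was the mean over the 3 series of its level at 2 h minus its level at 0 h, so that 1 unit is a doubling. The lowest correlation of any of the 6 arrays with another array of 0 to 24 h was 0.995. RNA integrity was read from the signal at the 3′ end of a message less that at its 5′ end. For ACTB it was 0.48 to 0.95 at 2 h and 0.59 to 0.81 at 0 h, and for GAPDH it was 0.17 to 0.23 at 2 h and 0.18 to 0.23 at 0 h. Between 0 h and 2 h the ACTB value went from 0.81 to 0.48 in the DMSO series and from 0.59 to 0.95 in the Thiamet-G series. In the 5SGlcNAc series it went from 0.72 to 0.75. The part of these shifts in the changes at 2 h was not tested. Of 15 markers of basal B breast cancer lines, 14 lay above the median level of all genes (8.17), with SPARC at 4.63 as the exception, and 8 of 19 luminal markers, 4 of 14 fibroblast markers and 0 of 9 haematopoietic markers did. The oestrogen receptor gene ESR1 lay at 7.14 and the progesterone receptor gene PGR at 3.95, below that median. The number of arrays limits the precision: the median standard error of a change was 0.080. The 3 arrays of a time differ in treatment and carry no replicate number, so each p-value rests on the spread left over the 18 arrays of 0 to 24 h once time and treatment series are taken out.

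A small set of genes moved. Of 11963 genes, 61 passed an adjusted p of 0.05 (limma, two-sided, Benjamini-Hochberg), which is 0.51% of all, with 25 higher at 2 h (0.209%) and 36 lower (0.301%). In every one of the 61, the 3 arrays of 2 h and the 3 arrays of 0 h did not overlap and all series moved one way. The test that picked these genes used the same arrays and favours such agreement, so it is no separate support. Over all genes, arrays of the 2 times did not overlap for 16.1% (7.47% higher and 8.58% lower), the 3 series shared 1 sign for 28.6%, and 7.29% had an unadjusted p under 0.05. Most of the called changes were small: 13 genes were over 1.5-fold higher at 2 h, 6 were over 1.5-fold lower, and over 2-fold there were 3 higher and 0 lower. The median change of all genes was -0.002. With each array centred on its median the split was 31 higher and 30 lower.

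**Figure D1:**
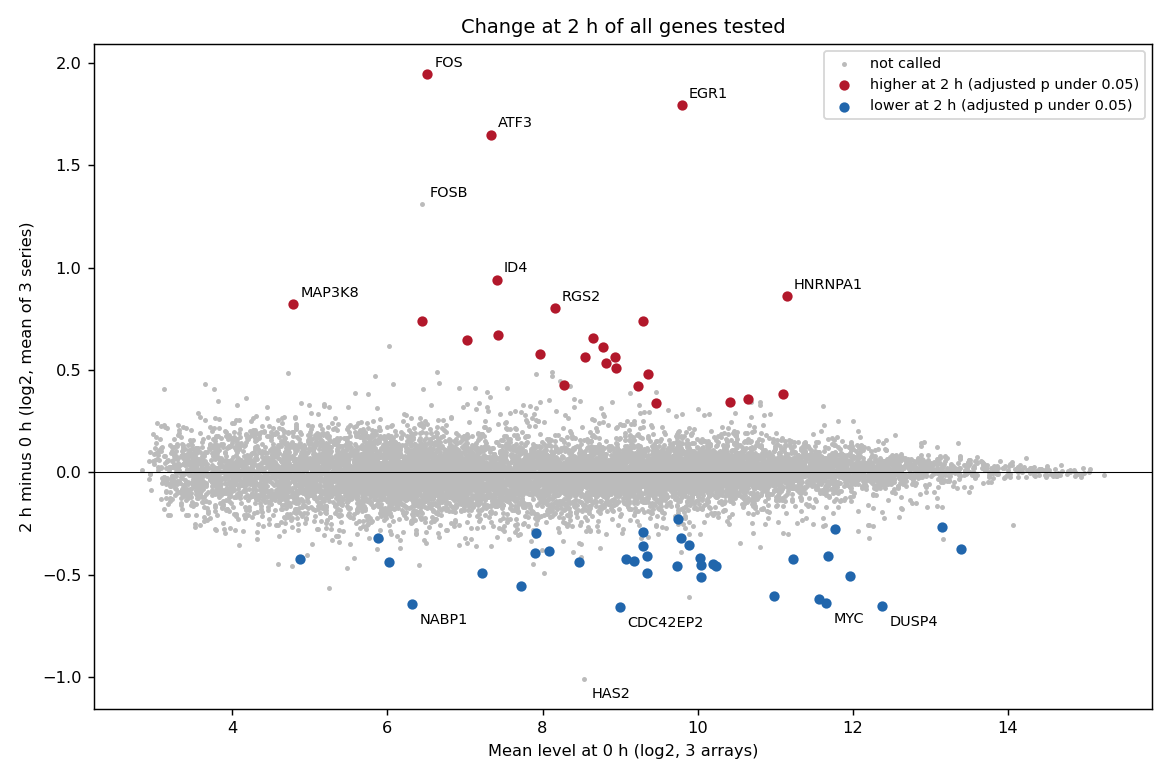
Change at 2 h of each of 11963 genes (y axis, log2, mean of the 3 series) against its mean level at 0 h (x axis, log2). Red points are the 25 genes called higher at 2 h, blue points the 36 called lower and grey points genes that were not called, and FOS, EGR1 and ATF3 lie above all others.

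How far the calls rested on single arrays was measured by fits that each left out 1 of the 6 arrays. Without the 5SGlcNAc, Thiamet-G and DMSO arrays of 2 h the number of genes called was 15, 42 and 28, and without the same arrays of 0 h it was 24, 34 and 16. Of the 61 genes, 13 were called in all 6 of these fits. They were FOS, EGR1, HNRNPA1, MAP3K8, TNFSF9 and ZFP36, which were higher at 2 h, and MYC, DUSP4, KLF6, SOX9, CDC42EP2, FOXA2 and HS3ST1, which were lower. Another 15 of the 61 were called in none of the 6 fits. The number of the 6 fits in which a gene passed is given below for the genes named.

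Among immediate early transcription factors the changes went both ways. FOS and EGR1 rose over 3-fold and ATF3, a stress-induced factor, 3.14-fold, whereas MYC and KLF6 fell. Of 26 measured members of the list, 3 rose, 2 fell and 21 did not pass (19.2% called, against 0.51% of all genes). The list's median change was 0.06, with 15 members above 0. This list and those below were written with earlier results of these data known, so their shares are descriptions.

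FOS, the partner of JUN in the transcription factor AP-1, had levels of 9.11, 7.88 and 8.38 in the 5SGlcNAc, Thiamet-G and DMSO arrays of 2 h, against 6.54, 6.51 and 6.48 in the same series at 0 h. The lowest 2 h array was thus well above the highest 0 h array, and the 2 h arrays were spread more widely than the 0 h arrays. FOS averaged 8.46 ± 0.62 at 2 h and 6.51 ± 0.03 at 0 h (SD, n = 3 each), a 3.85-fold rise (change 1.95 ± 0.25, SE; adjusted p = 0.00145). EGR1, a zinc finger factor induced through ERK and serum response factor, lay at 11.97, 11.07 and 11.73 at 2 h, against 9.84, 9.71 and 9.84 at 0 h, in the same order of series. Its arrays did not overlap either, and the Thiamet-G array was again the lowest at 2 h. EGR1 rose 3.47-fold (change 1.79 ± 0.17, adjusted p = 0.000352), and its dimmer probe set changed by 1.42. Both genes were called in all 6 fits that left out 1 array.

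ATF3 had levels of 9.84, 8.64 and 8.47 at 2 h and of 7.40, 7.33 and 7.28 at 0 h in the 5SGlcNAc, Thiamet-G and DMSO series. All 3 arrays of 2 h were higher, with the 5SGlcNAc array apart from the other two. ATF3 rose by 1.65 ± 0.31 (adjusted p = 0.0244), but it was called in only 1 of the 6 fits, and without the 5SGlcNAc array of 2 h its change was 1.24 (adjusted p = 0.144). FOSB, a relative of FOS, lay at 8.51, 7.63 and 7.14 at 2 h and at 6.55, 6.34 and 6.46 at 0 h. Its groups did not overlap, and its change of 1.31 ± 0.30 had an adjusted p of 0.0847. Over the 6 fits that left out 1 array its change was 1.003 to 1.69 and its adjusted p 0.0253 to 0.464. It passed in 1 of them, the one without the DMSO array of 2 h, which was its lowest array of that time. With its 2 h and 0 h arrays unchanged, FOSB also passed without the arrays of 4 h (limma, adjusted p = 0.0119). Its call thus depended on which arrays were in the fit. The change itself was 1.69 without the DMSO array of 2 h and stayed at 1.31 without the arrays of 4 h.

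The regions just upstream of EGR1 and FOS are shown because these genes had the largest changes among those called in all 6 fits. They are the 250 bases before the annotated start of each gene in RefSeq, on the + strand of GRCh38.p14, at chr5:138465229-138465478 for EGR1 and chr14:75278578-75278827 for FOS. Capitals mark the matches to the motifs searched.
EGR1: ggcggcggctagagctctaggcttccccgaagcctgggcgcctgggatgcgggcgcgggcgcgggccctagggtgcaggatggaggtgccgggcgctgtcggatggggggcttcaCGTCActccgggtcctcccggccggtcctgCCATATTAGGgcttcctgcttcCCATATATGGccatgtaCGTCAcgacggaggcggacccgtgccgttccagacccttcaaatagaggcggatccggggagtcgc
FOS: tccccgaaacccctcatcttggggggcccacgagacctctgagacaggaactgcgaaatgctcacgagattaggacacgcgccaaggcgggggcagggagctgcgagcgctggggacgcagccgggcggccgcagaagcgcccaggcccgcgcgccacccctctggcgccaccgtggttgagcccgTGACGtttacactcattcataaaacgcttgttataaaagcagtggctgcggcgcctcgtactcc
The search covered both strands of windows from 250 bases before to 50 bases after a start, for the CArG box (the motif of serum response factor, named only), the cyclic AMP response element TGACGTCA (CRE), its first 5 bases TGACG (the CRE core, which every full CRE also holds), the AP-1 motif TGANTCA and the E-box CACGTG. The EGR1 window held 2 CArG boxes, which start 105 and 83 bases before the start of the gene, and 2 CRE cores, at 135 and 66 bases before it, which read CGTCA on the strand shown. The FOS window held 1 CRE core, 64 bases before the start. Sites over 250 bases before a start were not searched, so a motif further upstream of FOS or EGR1 would not be seen.

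Over all 27305 promoter windows, a CArG box was present in 1.29%, a CRE in 1.98%, a CRE core in 25.0%, an AP-1 motif in 7.76% and an E-box in 7.43%. Over the windows of the 9563 measured genes that had one, the shares were 1.28%, 3.06%, 31.3%, 5.43% and 9.51% in the same order. A window was listed for 22 of the 25 genes that rose. Of these, 2 held a CArG box (EGR1 and FAM53C, of which FAM53C was named after its value was seen), 9 a CRE core (40.9%), 1 an AP-1 motif, 2 an E-box and 0 a CRE. Of the 36 genes that fell, 28 had a window: 0 held a CArG box, an AP-1 motif or a CRE, 7 a CRE core (25.0%) and 4 an E-box. These are matches of letters in short windows, with no test.

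MYC, which drives growth and ribosome synthesis, was at 10.95, 11.21 and 10.89 in the 5SGlcNAc, Thiamet-G and DMSO arrays of 2 h, against 11.61, 11.69 and 11.66 at 0 h. Every 2 h array was below every 0 h array. MYC fell by 0.64 ± 0.07 (SE; adjusted p = 0.00037), a level 1.56-fold lower at 2 h. KLF6, a zinc finger factor, lay at 10.35, 10.62 and 10.15 at 2 h and at 10.95, 11.01 and 10.99 at 0 h. KLF6 fell by 0.61 (adjusted p = 0.00145), and its dimmer probe sets changed by -0.55 and -0.30. Both falls were called in all 6 fits, and for both the Thiamet-G array was the highest of the 2 h arrays.

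JUN was at 11.86, 11.81 and 11.67 at 2 h and at 12.07, 12.04 and 12.08 at 0 h. Its arrays did not overlap, yet its change of -0.28 ± 0.06 had an adjusted p of 0.0606, and its 3 dimmer probe sets changed by -0.46, -0.40 and -0.36. With the mean of the 4 probe sets JUN changed by -0.38 and was called (adjusted p = 0.0107). JUNB changed by 0.35 (adjusted p = 0.256), with arrays that did not overlap, and EGR3 by 0.20, with arrays that did. IER2 and IER3, which are induced by serum and growth factors, differed by -0.02 and -0.07.

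**Figure D2:**
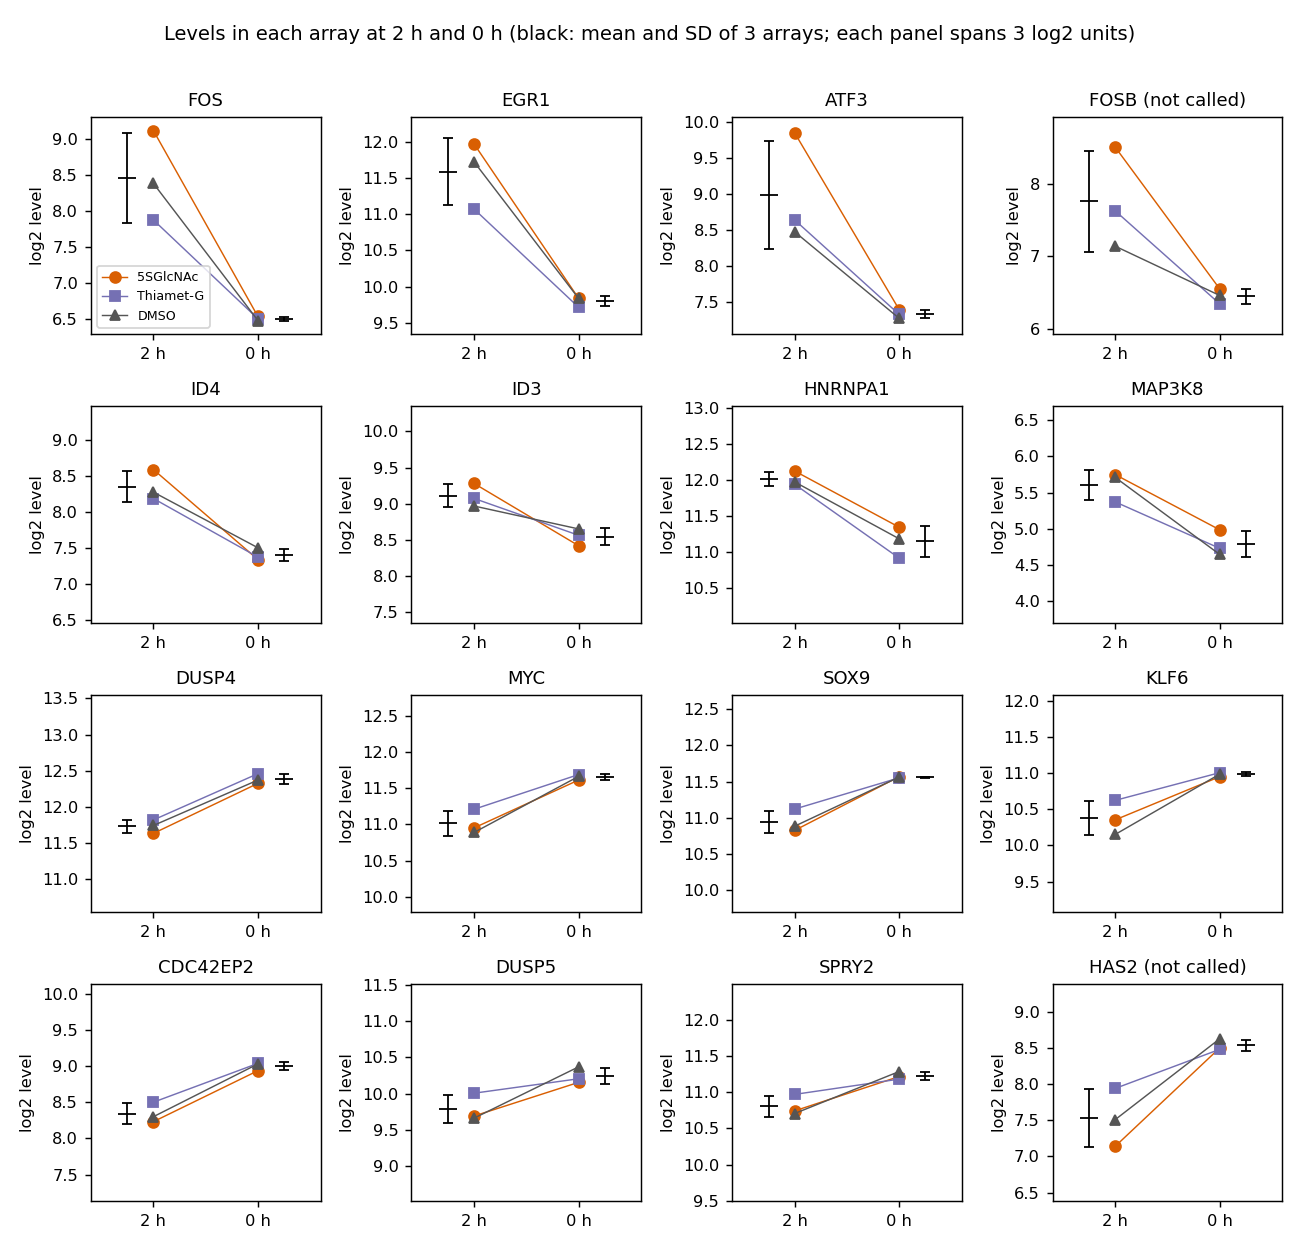
Level (y axis, log2 as deposited) of 16 genes in each array at 2 h and 0 h, with a line joining the arrays of 1 series. Orange circles are 5SGlcNAc, purple squares Thiamet-G and grey triangles DMSO, and black bars give the mean and SD of the 3 arrays of a time. In each panel the 3 arrays of 2 h lie on 1 side of the 3 arrays of 0 h, and the 2 genes that did not pass the test are named as such.

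In the list of immediate early effectors and mRNA decay, 1 of 19 members rose and 1 fell, with a median of 0.09. ZFP36, which binds AU-rich elements and speeds the decay of cytokine and immediate early messages, lay at 9.48, 9.06 and 9.38 at 2 h, against 8.64, 8.60 and 8.70 at 0 h, and rose by 0.66 ± 0.09 (adjusted p = 0.00408, called in all 6 fits). PLK2, a kinase, lay at 11.43, 11.77 and 11.18 at 2 h and at 12.02, 11.91 and 11.96 at 0 h. PLK2 fell by 0.51 (adjusted p = 0.0442), was called in 2 of the 6 fits, and its Thiamet-G array hardly moved. PPP1R15A, which recruits a phosphatase to the translation factor eIF2, changed by 0.28 (adjusted p = 0.0818).

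Several feedback genes of the ERK pathway fell at 2 h and none rose. Of 17 measured members, 4 fell (DUSP4, DUSP5, SPRY2 and PHLDA1), 0 rose and 13 did not pass, which is 23.5% called, where 0.51% of all genes were. The median change was -0.08, with 13 members below 0, and 9 members had 2 h arrays wholly below the 0 h arrays, where 8.58% of all genes had.

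DUSP4, a nuclear phosphatase of ERK, had levels of 11.63, 11.82 and 11.74 in the 5SGlcNAc, Thiamet-G and DMSO arrays of 2 h, against 12.32, 12.46 and 12.37 at 0 h. The 3 series moved by nearly the same amount. DUSP4 fell by 0.65 ± 0.07 (adjusted p = 0.00037), was called in all 6 fits, and changed by -0.72 in its dimmer probe set. DUSP5, another nuclear ERK phosphatase, lay at 9.69, 10.00 and 9.66 at 2 h and at 10.15, 10.20 and 10.37 at 0 h, and fell by 0.46 (adjusted p = 0.0269). SPRY2, an inhibitor of receptor signalling to ERK, lay at 10.74, 10.97 and 10.71 at 2 h and at 11.22, 11.18 and 11.29 at 0 h, and fell by 0.42 (adjusted p = 0.0114). The Thiamet-G array was the highest of the 3 at 2 h in both. DUSP5 was called in 1 and SPRY2 in 2 of the 6 fits, with adjusted p values up to 0.198 and 0.102, both without the DMSO array of 0 h.

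DUSP6, the cytoplasmic ERK phosphatase, was at 12.68, 13.07 and 12.78 at 2 h and at 13.25, 13.13 and 13.13 at 0 h, a change of -0.32 ± 0.09 (adjusted p = 0.209). DUSP1, which acts on several MAP kinases and is itself an immediate early gene, changed by 0.29 (adjusted p = 0.537). SPRY1 changed by -0.61 (adjusted p = 0.0719). It and PHLDA1, which fell by 0.37 (adjusted p = 0.0442) and was called in 0 of the 6 fits, were named after their values were seen. Among genes that ERK signalling is known to induce, FOS and EGR1 were thus higher at 2 h, and DUSP4, DUSP5, SPRY2 and PHLDA1 were lower.

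The BMP and TGF-beta list had 4 members that rose (ID3, ID4, SMAD7 and BAMBI) and 1 that fell (BMP4) among 17 measured (29.4% called, against 0.51% of all genes), with a median of 0.09 and 10 members above 0. ID4 lay at 8.59, 8.19 and 8.27 in the 5SGlcNAc, Thiamet-G and DMSO arrays of 2 h and at 7.34, 7.38 and 7.51 at 0 h. ID4 rose by 0.94 ± 0.16 (adjusted p = 0.0127), and its dimmer probe sets changed by 0.48 and 0.75. ID3 was at 9.28, 9.07 and 8.97 at 2 h and at 8.42, 8.56 and 8.65 at 0 h. In both, every 2 h array was above every 0 h array, and the 5SGlcNAc array was the highest. ID3 rose by 0.56 ± 0.09 (adjusted p = 0.0127), and both ID3 and ID4 were called in 3 of the 6 fits, with an adjusted p of 0.116 for both without the 5SGlcNAc array of 2 h.

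BAMBI, a decoy receptor that dampens BMP and TGF-beta signals, lay at 9.54, 9.33 and 9.49 at 2 h and at 8.94, 8.88 and 9.01 at 0 h, and rose by 0.51 (adjusted p = 0.0127). It was called in 1 of the 6 fits. SMAD7, an inhibitor of the receptors, and the ligand BMP4 were named after their values were seen: SMAD7 rose by 0.42 (adjusted p = 0.00881) and BMP4 fell by 0.41 (adjusted p = 0.0127), and they were called in 4 and 2 of the 6 fits. ID1 was at 10.53, 10.28 and 10.28 at 2 h and at 10.06, 10.10 and 10.09 at 0 h. Its change of 0.28 ± 0.06 did not pass (adjusted p = 0.0877), nor did that of ID2, at 0.45 (adjusted p = 0.0601, named after its value was seen).

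The other genes with the largest rises were of mixed function. HNRNPA1, an RNA-binding protein of splicing, was at 12.12, 11.94 and 11.97 in the 5SGlcNAc, Thiamet-G and DMSO arrays of 2 h, against 11.35, 10.92 and 11.18 at 0 h. It rose by 0.86 ± 0.12 (adjusted p = 0.00475), and its dimmer probe sets changed by 1.37 and 1.02. The brightest probe set is of a class that can match related sequences, so signal from near-identical copies cannot be told apart by it. RSRP1, an arginine and serine rich protein, rose by 0.74 (adjusted p = 0.00779), and its dimmer probe set changed by 1.40.

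MAP3K8, a kinase upstream of ERK, was at 5.75, 5.37 and 5.71 at 2 h and at 4.98, 4.73 and 4.64 at 0 h. It rose by 0.82 ± 0.10 (limma, adjusted p = 0.00145). At 2 h it remained below the median level of all genes and below that of the haematopoietic markers (5.97), so its signal was low. RGS2, which speeds the shutdown of G proteins, lay at 9.19, 8.72 and 8.98 at 2 h and at 8.06, 8.10 and 8.31 at 0 h, a rise of 0.80 (adjusted p = 0.0288) that was called in 0 of the 6 fits. TNFSF9, the ligand of the costimulatory receptor 4-1BB, rose by 0.67 (adjusted p = 0.00145, called in all 6), and OSR2, a zinc finger factor, by 0.65 (adjusted p = 0.00881, called in 3). VAMP1, a vesicle protein, rose by 0.74 (adjusted p = 0.0156, called in 1), although a dimmer probe set changed by -0.02.

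CLK1, a kinase that phosphorylates SR splicing factors, was at 9.42, 9.40 and 9.25 at 2 h and at 8.90, 8.81 and 8.77 at 0 h. It rose by 0.53 ± 0.09 (adjusted p = 0.0164), was called in 0 of the 6 fits, and was the only called member of 22 in the list of CLK kinases and SR splicing factors, whose median was 0.06. The cold-inducible RNA-binding protein gene CIRBP changed by 0.33 (adjusted p = 0.0877) and SRSF5 by 0.23 (adjusted p = 0.380). INSIG1, which holds the sterol regulator SREBP in the endoplasmic reticulum, rose by 0.48 (adjusted p = 0.00881, called in 4 of the 6 fits) as the only called one of 17 cholesterol genes (median 0.03). HERPUD1, of endoplasmic reticulum protein degradation, rose by 0.39 (adjusted p = 0.0164, called in 1) as the only called one of 19 chaperone and unfolded protein response genes (median 0.02).

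The other genes with the largest falls were of mixed function too. SOX9, a transcription factor of progenitor cells, lay at 10.82, 11.12 and 10.88 in the 5SGlcNAc, Thiamet-G and DMSO arrays of 2 h, against 11.57, 11.55 and 11.56 at 0 h. SOX9 fell by 0.62 ± 0.07 (adjusted p = 0.00138), and its dimmer probe set changed by -0.83. FOXA2, a forkhead factor of endoderm, was at 8.75, 9.01 and 8.79 at 2 h and at 9.32, 9.36 and 9.34 at 0 h, and fell by 0.49 (adjusted p = 0.00145). Both were called in all 6 fits and had the Thiamet-G array highest at 2 h. CDC42EP2, an effector of the small GTPase CDC42, lay at 8.23, 8.50 and 8.30 at 2 h and at 8.94, 9.04 and 9.03 at 0 h. It had the largest fall among called genes, 0.66 ± 0.07 (adjusted p = 0.00051), and its dimmer probe set changed by -0.71.

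NABP1, a single-stranded DNA binding protein, fell by 0.64 (adjusted p = 0.00881, called in 4 of the 6 fits), and HS3ST1, a heparan sulfate sulfotransferase, by 0.51 (adjusted p = 0.00229, called in all 6), where the dimmer probe sets of HS3ST1 changed by -0.13 and -0.09. The mean level of NABP1 was 5.67 at 2 h and 6.32 at 0 h. At 2 h it lay below the median level of the haematopoietic markers (5.97), so its signal was low. DEPP1, an autophagy regulator induced by FOXO factors, fell by 0.55 (limma, adjusted p = 0.0288, called in 1 of the 6 fits). TRIB2, a pseudokinase, fell by 0.46 (adjusted p = 0.0381, called in 0) and ZNF248, a zinc finger gene, by 0.49 (adjusted p = 0.0438, called in 1). HAS2, which makes hyaluronan, was at 7.14, 7.94 and 7.51 at 2 h and at 8.50, 8.48 and 8.63 at 0 h. Its arrays did not overlap and its change of -1.01 ± 0.24 was the lowest of all genes, but it did not pass (adjusted p = 0.0966).

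HAS2 belongs to the matrix and mesenchymal list, in which 1 of 28 members fell (SNAI2, a repressor of epithelial genes, by 0.42, adjusted p = 0.0216, called in 2 of the 6 fits) and 21 lay below 0, with a median of -0.07. Among luminal markers 2 of 19 fell, with a median of -0.10 and 15 below 0. GATA3, a luminal transcription factor, was at 9.43, 9.71 and 9.48 at 2 h and at 9.85, 9.94 and 9.90 at 0 h, and fell by 0.36 (adjusted p = 0.0463, called in 0 of the 6 fits). CDH1, the gene of E-cadherin, fell by 0.44 in its brighter probe set (adjusted p = 0.0368, called in 1), which lay below the median level of all genes, and changed by 0.13 in the dimmer one. With the mean of both probe sets CDH1 changed by -0.15 and was not called (adjusted p = 0.868).

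**Figure D3:**
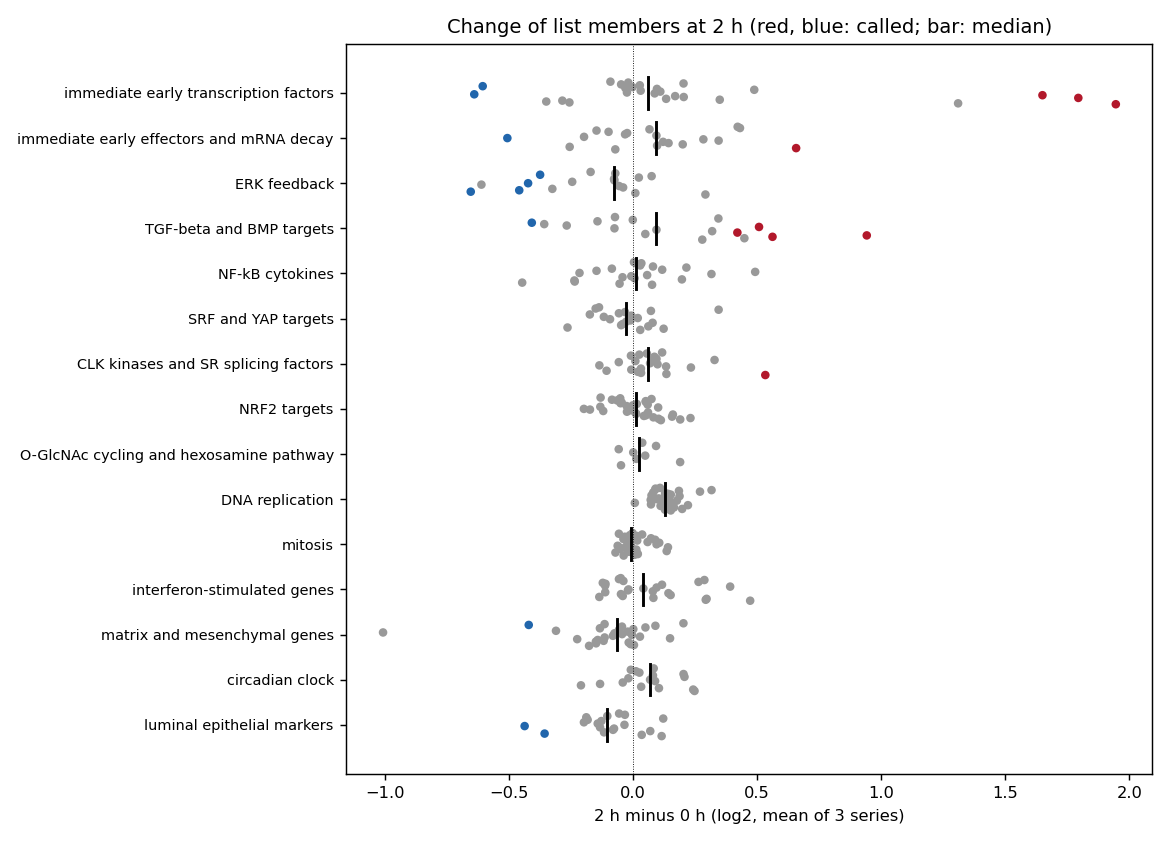
Change at 2 h (x axis, log2, mean of the 3 series) of each measured member of 15 gene lists, 1 point per gene. Red and blue points passed the test as higher or lower, grey points did not, and black bars are the list medians. All 31 DNA replication genes lie above 0 and none is called, and the called members of the immediate early and TGF-beta lists lie on both sides of 0.

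DNA replication genes lay slightly above their 0 h levels, and none was called. Of 31 measured members, 31 lay above 0, where 48.6% of all genes did, and in 23 the 2 h arrays were wholly above the 0 h arrays, where 7.47% of all genes were. The median change was 0.13, and it was 0.15, 0.12 and 0.11 in the 5SGlcNAc, Thiamet-G and DMSO series. ORC1, a subunit of the origin recognition complex, had levels of 8.32, 8.15 and 8.23 at 2 h, against 7.91, 7.90 and 7.95 at 0 h (change 0.32 ± 0.07, adjusted p = 0.0560). TYMS, which makes thymidylate, was at 13.47, 13.52 and 13.50 at 2 h and at 13.36, 13.35 and 13.36 at 0 h (change 0.14, adjusted p = 0.380), and RFC2, of the clamp loader, changed by 0.18 (adjusted p = 0.378). Their arrays did not overlap. All 10 histone genes lay above 0 too, with a median of 0.11, whereas 31 mitotic genes had a median of -0.01 with 14 above 0. List members share the same 6 arrays, so these counts are descriptions.

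The genes at which the inhibitors and the series' title point did not pass at 2 h. OGT was at 11.50, 11.42 and 11.38 in the 5SGlcNAc, Thiamet-G and DMSO arrays of 2 h and at 11.62, 11.41 and 11.41 at 0 h (change -0.05 ± 0.19), and its 4 dimmer probe sets changed by 0.00 to 0.12. OGA was at 10.56, 10.64 and 10.55 at 2 h and at 10.44, 10.36 and 10.38 at 0 h (change 0.19 ± 0.34). The arrays of OGT overlapped and those of OGA did not. NFE2L2, the gene of NRF2, changed by -0.01, with a 95% confidence interval of -0.14 to 0.12, and KEAP1, its inhibitor, by 0.02, with one of -0.10 to 0.15. Of 33 NRF2 targets, 0 passed in limma, and the median was 0.01. The haem oxygenase gene HMOX1 changed by 0.19 (interval -0.60 to 0.98), the quinone reductase gene NQO1 by 0.11 (interval -0.05 to 0.27) and GCLC, of glutathione synthesis, by 0.23 (adjusted p = 0.472). These intervals and standard errors use a spread estimated over all 18 arrays. That spread also holds any difference between treatments that varies with time, which can widen both. A gene that did not pass is therefore not shown to be unchanged at 2 h. How far the spread was widened was not tested. HMOX1 stood 1.08 above its 0 h mean at 24 h, averaged over the vehicle and both inhibitor series, so the rise is not shown for each series. None of the 8 measured genes for O-GlcNAc turnover and hexosamine synthesis passed (median 0.03), and TXNIP, a glucose-responsive arrestin, changed by 0.18 (adjusted p = 0.571).

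Other lists held no called member at 2 h. The 22 NF-kB cytokine genes had a median of 0.01: IL6 lay at 8.81, 8.64 and 8.02 at 2 h and at 8.52, 8.24 and 8.48 at 0 h, CXCL8 changed by -0.05, CXCL1 by -0.45 (adjusted p = 0.180) and the inducible cyclooxygenase gene PTGS2 by 0.49 (adjusted p = 0.448). The 20 targets of SRF and YAP had a median of -0.03, with CCN1 at 0.03, CCN2 at 0.12 and ANKRD1 at -0.26 (adjusted p = 0.110). The 25 interferon-stimulated genes had a median of 0.04, and the 17 circadian clock genes one of 0.07, with the period genes PER2 at 0.25 and PER3 at 0.24. No member passed among EGF family ligands and receptors (median -0.04), glucocorticoid receptor targets (0.01), MondoA and glucose response genes (0.02), ATF4 and amino acid response genes (0.02), hypoxia-responsive genes (-0.02), cytosolic heat shock chaperones (0.01), metallothioneins (0.05), cytosolic ribosomal proteins (0.02), basal B markers (-0.04), haematopoietic markers (0.04) and fibroblast markers (-0.02). In the lists of p53-linked, FOXO and ribosome biogenesis genes (medians -0.03, 0.05 and 0.03), PLK2, KLF6 and MYC were the only called members.

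The 3 series shared the direction of the called changes, and the sizes differed. The shared direction follows in large part from the call, which favours genes that move alike in all series. Among the 25 genes that rose the median change was 0.64 in the 5SGlcNAc series, 0.59 in the Thiamet-G series and 0.54 in the DMSO series. Among the 36 that fell it was -0.46, -0.36 and -0.55 in the same order, and the Thiamet-G series had the smallest fall of the 3 in 25 of them. Over all genes the median size of a change was 0.091, 0.099 and 0.083 in the 5SGlcNAc, Thiamet-G and DMSO series. With 1 array per series and time no difference between series could be tested. Fits that left out a whole series called fewer genes. Without the DMSO series 0 genes passed in limma (784 had an unadjusted p under 0.05), without the 5SGlcNAc series 6 and without the Thiamet-G series 28.

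**Figure D4:**
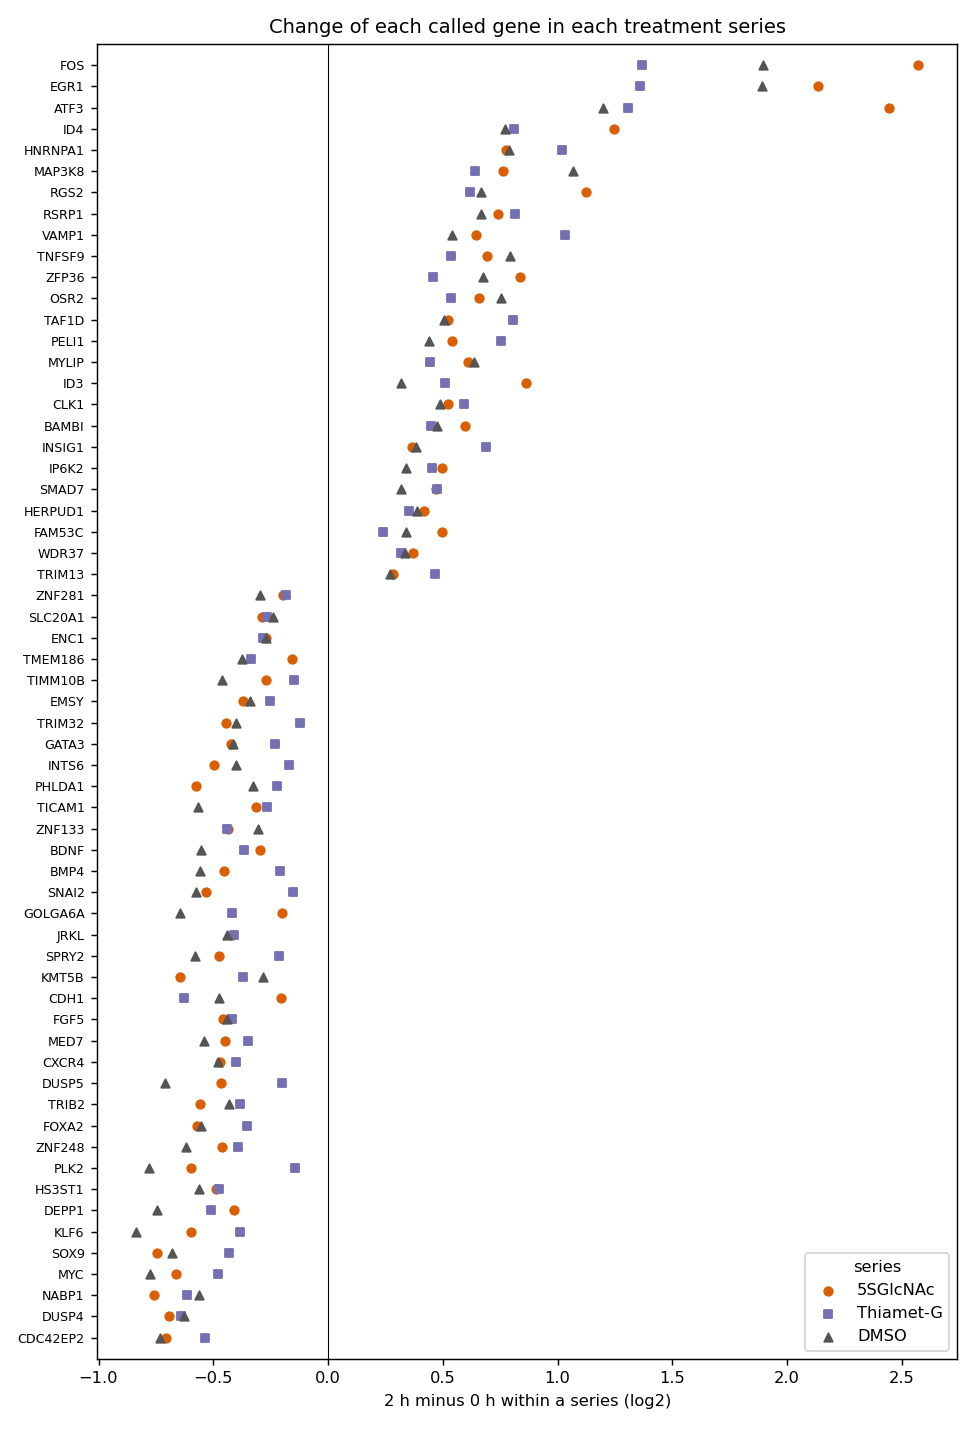
Level at 2 h minus level at 0 h (x axis, log2) within each treatment series for the 61 called genes, sorted by their mean change. Orange circles are 5SGlcNAc, purple squares Thiamet-G and grey triangles DMSO. Every gene lies on 1 side of 0 in all 3 series, which the test that picked the genes favours. FOS, EGR1 and ATF3 have their highest point in the 5SGlcNAc series.

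The largest differences from the DMSO series, among genes above the median level, lay in 5 genes, of which PLK2 was called at 2 h against 0 h. TCAF1, a regulator of a cation channel, changed by -0.19 in the 5SGlcNAc series and by 0.62 in the DMSO series, and ACSL4, an acyl-CoA synthetase, by -0.40 and 0.24. IL6 changed by 0.29 in the 5SGlcNAc series, by 0.40 in the Thiamet-G series and by -0.46 in the DMSO series. LLGL1, a polarity protein, changed by -0.37 in the Thiamet-G series and by 0.27 in the DMSO series. PLK2 changed by -0.14 in the Thiamet-G series and by -0.78 in the DMSO series.

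The later arrays show how long the 2 h levels lasted. All times were set against the same 0 h arrays, and the genes were chosen for their values at 2 h, so the values are given side by side without a test. At 2, 4, 6, 8 and 24 h the median difference from 0 h was 0.61, 0.49, 0.47, 0.36 and 0.19 for the 25 genes that rose. It was -0.43, -0.23, -0.11, -0.12 and -0.06 for the 36 that fell. FOS stood 1.95, 1.25, 0.92, 0.60 and 0.36 above its 0 h mean at these times, and EGR1 1.79, 1.54, 1.03, 0.75 and 0.19. ATF3 and ID4 were higher at 4 h than at 2 h, with ATF3 1.65 and 1.70 and ID4 0.94 and 1.24 above 0 h at 2 h and 4 h. ID3 was 0.56 above 0 h at 2 h, and differed from 0 h by -0.17 at 4 h. MYC differed from 0 h by -0.64, -0.15, -0.10, -0.19 and 0.08 at 2, 4, 6, 8 and 24 h. DUSP5 was 0.46 below 0 h at 2 h (change -0.46) and 0.53 above it at 24 h. DEPP1 went the other way, with differences of -0.55 at 2 h and -0.86 at 24 h, and CDH1 had -0.44 and -0.84.

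**Figure D5:**
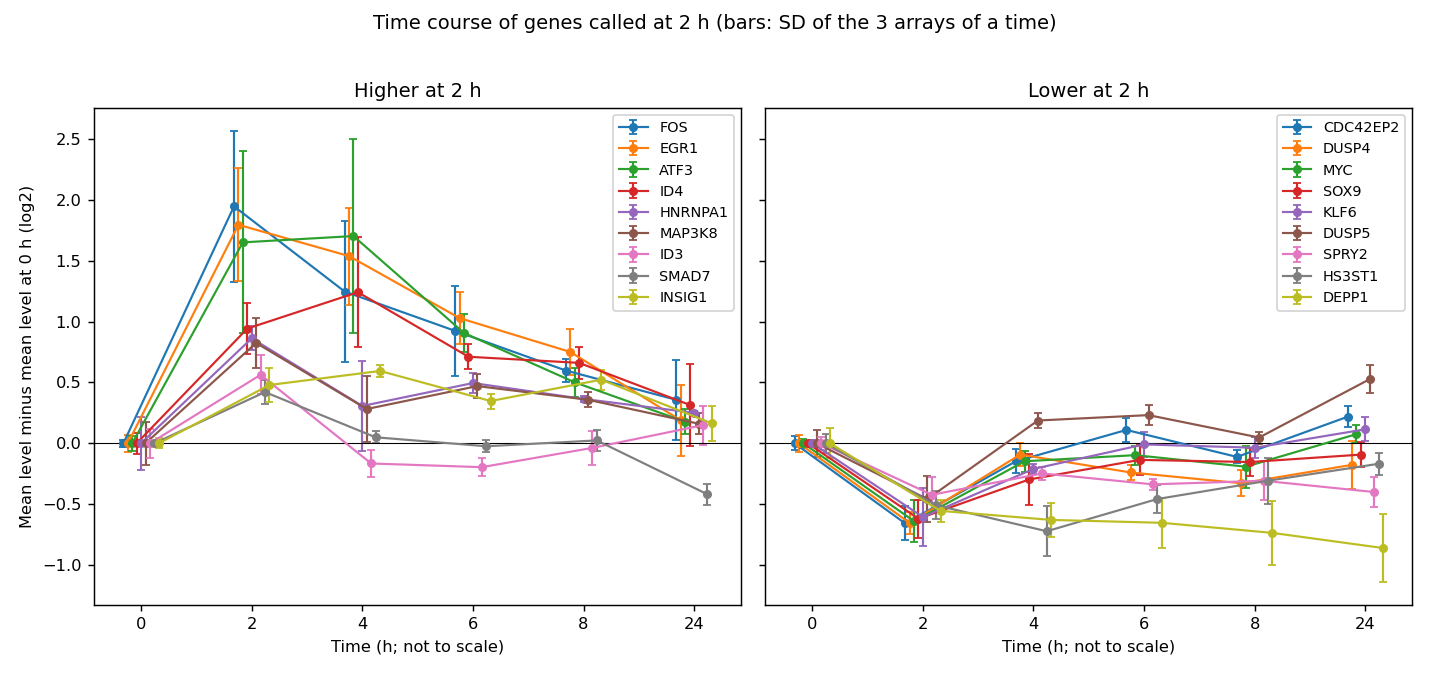
Mean level minus the mean level at 0 h (y axis, log2) at 0, 2, 4, 6, 8 and 24 h (x axis, not to scale) for 9 genes called higher at 2 h (left) and 9 called lower (right). Bars are the SD of the 3 arrays of a time. FOS is highest at 2 h, ID3 and SMAD7 are near 0 by 4 h, and DEPP1 is lowest at 24 h.

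A contrast of 2 h with the mean of 4, 6 and 8 h compared the first time with the following hours. It shares the 2 h arrays with the contrast above. In limma, 223 genes passed (1.86%), 63 higher at 2 h (0.527%) and 160 lower (1.34%), and 14.4% had an unadjusted p under 0.05. The number was 39, 43 and 178 without the DMSO, 5SGlcNAc and Thiamet-G arrays of 2 h, and 161 to 212 without any 1 of the 9 later arrays. The ACTB value for RNA integrity was 0.89 to 1.64 among the arrays of 4 h, and without the DMSO and Thiamet-G arrays of that time, an alternative chosen after seeing the data, the number was 92. Without all 3 arrays of 4 h it was 479. The part of RNA integrity in these calls was not tested.

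FOS, EGR1 and ID3 were called above for high levels in the same 2 h arrays, so their differences are given as values alone. They were higher at 2 h than over 4 to 8 h by 1.02 ± 0.20, 0.69 ± 0.14 and 0.70. NDP, a ligand of the Wnt receptor Frizzled-4, was higher by 0.84 (limma, adjusted p = 0.0182). It did not rise from 0 h, since NDP averaged 5.92 at 2 h and 6.21 at 0 h (change -0.29). At 2 h it lay below the median level of the haematopoietic markers (5.97), so its signal was low. MNT, a repressor that competes with MYC for its partner MAX, was higher by 0.58 (limma, adjusted p = 0.0044), and changed by 0.39 from 0 h to 2 h. Without the 5SGlcNAc array of 2 h the differences of FOS and EGR1 were 0.69 and 0.48. Those of NDP and MNT were then 0.68 and 0.51, and neither was called (limma, adjusted p = 0.201 and 0.0738).

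The 5 largest negative differences lay in IFIT1, HSPA6, OASL, IFIT2 and CH25H, of which IFIT1, OASL and IFIT2 are interferon-stimulated genes. IFIT1, which binds foreign RNA, averaged 8.59 ± 0.32 at 2 h, against 10.06, 10.44 and 9.62 at 4, 6 and 8 h, and its difference was -1.45 ± 0.21 (adjusted p = 0.00242). HSPA6, an inducible HSP70, differed by -1.18 (adjusted p = 0.0199), OASL, a relative of the oligoadenylate synthetases, by -1.01 (adjusted p = 0.0144), IFIT2 by -0.77 (adjusted p = 0.0388) and CH25H, which makes 25-hydroxycholesterol, by -0.72 (adjusted p = 0.0386). IFIT1 was called without each of the 12 arrays in turn, HSPA6 and OASL in 10 of those 12 fits, IFIT2 in 5 and CH25H in 6. CH25H averaged 5.52 at 2 h, below the median level of the haematopoietic markers (5.97), so its signal there was low. None of these 5 was called at 2 h against 0 h, where IFIT1 changed by 0.47 (adjusted p = 0.786) and HSPA6 by 0.23. Relative to 0 h, the interferon list had medians of 0.04, 0.16, 0.13, 0.04 and 0.06 at 2, 4, 6, 8 and 24 h. Its median at 8 h was thus no higher than at 2 h. For genes chosen above for low levels in the same 2 h arrays, the differences from 4 to 8 h are given as values alone. They were -0.61 for CDC42EP2, -0.71 for NABP1, -0.61 for DUSP5, -0.52 for KLF6, -0.49 for MYC, -0.43 for DUSP4 and -0.42 for SOX9. JUN, not called against 0 h, was lower than over 4 to 8 h by 0.38 (difference -0.38 ± 0.05, adjusted p = 0.00156).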

How the data were processed

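Total RNA was measured on Affymetrix arrays of 22277 probe sets. The values deposited by the authors are log2 levels per probe set. The labels and the submitters' processing notes name RMA, without a version. RMA equalises the distributions of arrays processed together, so it can hide a shift of most genes. The 48 h arrays form a separate set of values and were left out. There were 62 control probe sets, and the 19064 naming 1 gene gave 11963 genes, each taken as its brightest probe set. Symbols were updated through Entrez identifiers against RefSeq (19052 probe sets matched).

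The test was limma 3.58.1 under R 4.3.3, with lmFit and eBayes. Tests were two-sided, and p-values were adjusted over all genes by Benjamini-Hochberg, with 0.05 as the threshold. The fit held the 18 arrays of 0 to 24 h, with time as a factor and treatment series as a block (10 residual degrees of freedom). Because 1 spread is used for all times, genes whose arrays scatter at 2 h and not at 0 h are tested against an average of both. Nothing says that the arrays came from separate cultures, so the spread behind the p-values may be technical. It also holds any difference between treatments that varies with time, because the fit has no term for it. Gene lists (32) were described by counts and medians.

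Genes were named by a rule: the 12 largest rises and falls among called genes; up to 3 members of a list, by smallest p or, with over 3 called, by largest change; the 5 largest called in each direction for 2 h against 4 to 8 h; the 3 genes above the median level differing most between each inhibitor series and the DMSO series; and FOS, FOSB, JUN, JUNB, EGR1, EGR3, ATF3, MYC, IER2, IER3, KLF6, DUSP1, DUSP6, CCN1, CCN2, ID1, ID3, IL6, CXCL8, TXNIP, HMOX1, NQO1, OGT, OGA, NFE2L2 and KEAP1. PER1 and ARRDC4 were in the rule and were not analysed here. The comparison, lists and rule were chosen with earlier results of these data known. The gene fit was tested on simulated data. Alternatives were quantile normalization, median centring, leaving out dim genes (below percentile 40), averaging a gene's probe sets, leaving out _x_at probe sets, trend and robust variance, no series block, other sets of arrays, and leaving out each array or series.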

Additional observations from a re-analysis of the deposited data

Results flagged for a closer look

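Among the genes above the median level picked for the largest differences from the DMSO series, 4 had an inhibitor series that moved opposite to it. Opposite directions between 0 h and 2 h were common: over all genes, the 3 series shared 1 sign for only 28.6%. With 1 array per series and time, none of these differences was tested. For TCAF1 the change in the 5SGlcNAc series minus that in the DMSO series was -0.80, and it was -0.23 with the mean of its 4 probe sets. For IL6 the difference from the DMSO series was 0.75 in the 5SGlcNAc series and 0.86 in the Thiamet-G series, so the DMSO series stood apart from both. For ACSL4 the difference was -0.64 in the 5SGlcNAc series. For LLGL1 it was -0.64 in the Thiamet-G series and -0.18 with the mean of its probe sets.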

How the results depend on the processing

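The 61 genes called at 2 h against 0 h became 101 without dim genes, 92 with trend and robust variance, 33 with only the 6 arrays and the series block, and 24 with only the 6 arrays and no block. Without the DMSO, 5SGlcNAc and Thiamet-G series the counts were 0, 6 and 28, and without each array in turn 15 to 42. Median centring gave 31 higher and 30 lower, against 25 and 36 as deposited. The 223 genes called at 2 h against 4 to 8 h became 429 without dim genes, 425 with trend and robust variance, 479 without the arrays of 4 h, and 92 without the DMSO and Thiamet-G arrays of 4 h. Without the DMSO, 5SGlcNAc and Thiamet-G series the counts were 1, 3 and 83, without each array in turn 39 to 212, and 46 against 4 h alone and 491 against 8 h alone. The cause of these differences was not tested.

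Among the genes named, signs turned only in ones that were not called at 2 h against 0 h. Without the 5SGlcNAc series IL6 changed by -0.029, NFE2L2 by 0.017, KEAP1 by -0.040 and CH25H by -0.087. Without the Thiamet-G series IER2 changed by 0.029 and IL6 by -0.084, and without the DMSO series CXCL8 by 0.12 and NFE2L2 by 0.023. OGT changed by 0.028 with the mean of its probe sets, and NFE2L2 by 0.0029 with median centring. Without each array in turn the changes were -0.081 to 0.026 for IER2, -0.14 to 0.0060 for IER3, -0.087 to 0.30 for IL6, -0.16 to 0.075 for CXCL8, -0.0047 to 0.40 for HMOX1, -0.21 to 0.15 for OGT, -0.054 to 0.48 for OGA, -0.043 to 0.017 for NFE2L2, -0.030 to 0.058 for KEAP1, -0.047 to 0.48 for HSPA6 and -0.064 to 0.10 for CH25H. No paired analysis was possible by replicate number, because the arrays of 2 h and 0 h carry no replicate numbers to pair by. They were paired by treatment series instead, which the fit already holds as a block. Without that block 42 genes were called at 2 h against 0 h. Time and treatment each rest on 1 array per series, which limits what these arrays can separate.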

Other observations

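Of the 61 genes called at 2 h, 22 belonged to any of the lists. Among the others were 3 genes of secreted or surface signalling proteins, named after their values were seen. CXCR4, the receptor of the chemokine CXCL12, lay at 9.53, 9.68 and 9.56 in the 5SGlcNAc, Thiamet-G and DMSO arrays of 2 h, against 10.00, 10.08 and 10.04 at 0 h, and fell by 0.45 (limma, adjusted p = 0.0184). BDNF, a neurotrophin, fell by 0.41 (adjusted p = 0.0237) and FGF5, a fibroblast growth factor, by 0.44 (adjusted p = 0.0391). The arrays of 2 h and 0 h did not overlap for any of them. In the 6 fits that each left out 1 array, BDNF was called in 1 and CXCR4 and FGF5 in 0.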
